A study of Gallus gallus with 10 samples.

Results

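Heat shock proteins and their DNAJ cochaperones were followed in chick placode progenitors before and after explant culture. Members were the probe sets whose platform gene symbol begins with HSPA, HSPB, HSPD, HSPE, HSPH, HSP90 or DNAJA, DNAJB and DNAJC with a number, together with HSF2, HSF3, BAG3 and STIP1. HSPA5, HSP90B1 and DNAJC3, which serve the endoplasmic reticulum, and the matrix gene HSPG2 were left out. Other genes of the endoplasmic reticulum, among them DNAJB14 and DNAJC1, remained as members. The rule gave 65 genes out of 13009 with a symbol, on 130 probe sets. Each gene was represented by the probe set with the highest mean signal, and 54 genes had a present call on at least 2 of the 8 arrays whose calls were used. Of these, 47 were present on all 8. The other 11, among them STIP1, the adaptor that links HSP70 to HSP90, were not tested. The 8 arrays with calls were 3 of each fresh group and 1 of each cultured group. A gene called present only in cultured explants of 1 region therefore could not be tested. HSF1, the main heat shock factor of mammals, is the symbol of no probe set, but the RefSeq table lists it among the synonyms of HSF3.

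The samples were 3 arrays of anterior placode progenitors (aPPs) and 3 of posterior placode progenitors (pPPs), dissected by hand from chick embryos at stages HH5-7 and kept on ice. A further 2 arrays of aPPs and 2 of pPPs came from explants cut out in the same way, set in a gel of rat tail collagen and held there in culture for 5 hr. No genotype or drug treatment distinguished the groups. There were no arrays of tissue left in the embryo for 5 hr, so that culture and added age cannot be told apart. The fresh tissue was itself dissected and held on ice, and may therefore differ from undisturbed ectoderm in ways not measured here. In such bulk tissue, fewer cells of a type and less RNA per cell cannot be told apart.

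Heat shock proteins bind unfolded protein. HSP70 proteins hold and release their clients in a cycle driven by ATP, in which DNAJ proteins deliver the client and start ATP hydrolysis, and HSP110 proteins and BAG3 exchange the nucleotide. HSP90 acts later, on kinases and transcription factors among others, small HSPs hold unfolded protein without ATP, and HSPD1 with HSPE1 forms a folding chamber in mitochondria. Under heat or other stress, heat shock factors activate the inducible members within minutes to hours, whereas constitutive members such as HSPA8 are present in nearly all cells.

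Raw array medians ran from 6.2 to 21.3, so the MAS5 signals, which are intensities in arbitrary units, were quantile normalized. Differences are on the scale of log2(signal + 16), which makes the change of a dim gene smaller than the ratio of its signals. A gene was called when its adjusted p from limma was under 0.05 over 21591 tested probe sets. The summed signal of 6 preplacodal ectoderm genes was 3853 to 4383 in aPPs, 2278 to 3547 in pPPs, 3677 to 3882 in cultured aPPs and 3186 to 3490 in cultured pPPs. Mesendoderm and endoderm genes, summed over 3, stood at 283 to 1774 in aPPs against 216 to 244 in pPPs, 248 to 465 in cultured aPPs and 158 to 213 in cultured pPPs. Their part in the results below was not tested. In the deposited table with detection calls, 2 columns share the name of cultured aPP set 2 and none names cultured pPP set 2. The calls of these columns were not used, and the group of each array came from its sample label. On the array labelled cultured pPP set 2, the posterior marker GBX2 read 212 and the neural gene ZIC1 407, against 203 and 461 on cultured pPP set 1. On cultured aPP sets 1 and 2, GBX2 read 89.2 and 54.2 and ZIC1 19.0 and 70.3. Of the other posterior and neural genes tested, IRX2 read 157 and 215 on cultured pPP sets 1 and 2 against 120 and 112 on cultured aPPs. IRX1 and SOX3 overlapped between the cultured groups. IRX1 read 551 and 413 in cultured pPPs against 515 and 522 in cultured aPPs, and SOX3 152 and 206 against 139 and 250.

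After 5 hr of culture HSPB9 was called higher in explants of both regions, and HSPA2 in those of aPPs, in calls that depended on the settings. The second HSPB9 probe set was not called in pPPs, and the HSPA2 responses of the regions were not shown to differ. In pPPs 1 of the 54 genes was called (1.85%), HSPB9, while 3.93% of all tested probe sets were called (2.24% higher and 1.70% lower). In aPPs HSPB9 and HSPA2 were called, 2 of 54 (3.70%), beside 3.71% of all probe sets (2.10% higher and 1.61% lower). None of the 54 was called lower in either response, and counts this small do not set the list apart from all probe sets. The median log2 difference of the 54 genes was 0.10 in pPPs and 0.02 in aPPs, and that of all tested probe sets was -0.01 and -0.00. The gap between the members and all probe sets depended on the normalization. The members' median log2 signal varied between arrays of a group with an SD of 0.10. This SD describes signal levels on single arrays and is not the error of these median differences.

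**Figure D1:**
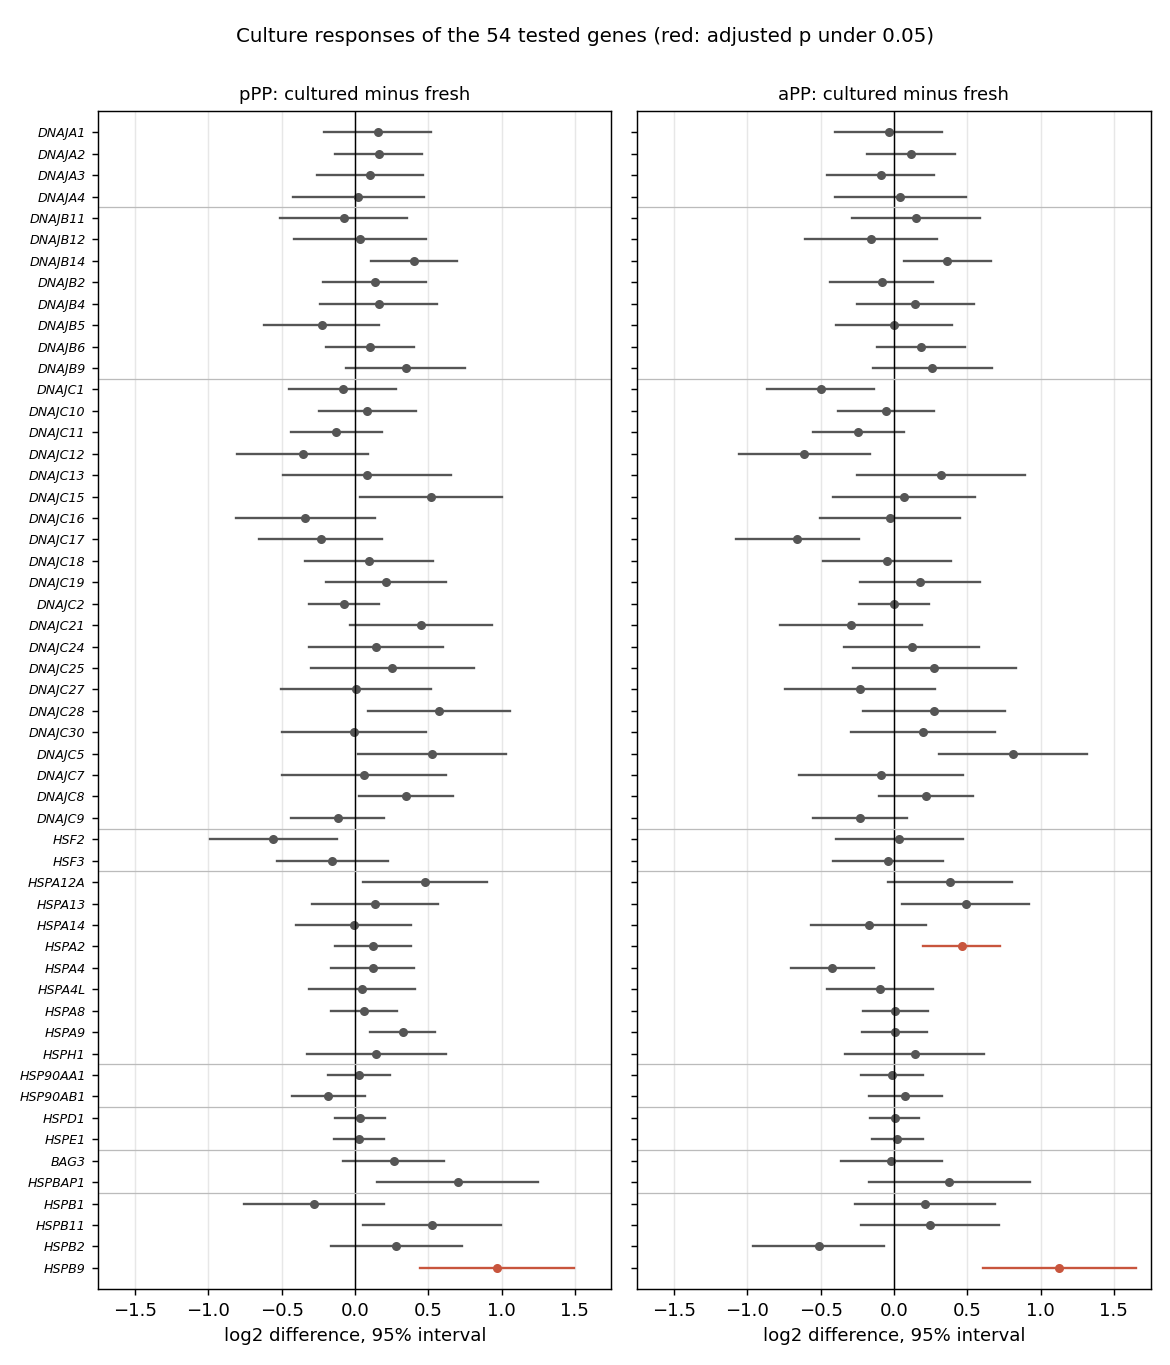
Log2 difference between cultured and fresh tissue (x axis, cultured minus fresh) for the 54 tested genes (y axis), in pPPs on the left and aPPs on the right; grey lines separate the classes, points are limma estimates and bars their 95% intervals. HSPB9 (both panels) and HSPA2 (right panel) are the red points with adjusted p under 0.05, and most other intervals cross 0.

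Neither heat shock factor was called in a culture response. HSF3, an avian factor that responds to strong heat stress, read 430, 342 and 354 in aPPs and 432, 467 and 407 in pPPs, and 386 and 339 in cultured aPPs and 455 and 333 in cultured pPPs. Cultured and fresh arrays overlapped in both regions, with log2 differences of -0.15 in pPPs and -0.04 in aPPs (95% intervals -0.53 to 0.22 and -0.42 to 0.33). The other HSF3 probe set gave 0.26 and 0.08, the opposite sign, also without a call. HSF2, a factor with known roles in development, read 517, 711 and 615 in pPPs but 348 and 482 in cultured pPPs. All fresh pPP arrays thus lay above both cultured ones, yet the difference of -0.56 (95% interval -0.99 to -0.12) was not called (adjusted p = 0.151). When the set number entered as a replicate block it was -0.61 with adjusted p = 0.0302. Other offsets, normalizations and detection filters, variances without the trend, array weights and only the arrays compared gave no call. Without pPP set 1, 2 or 3 the difference was -0.67, -0.45 or -0.55. Without cultured pPP set 1 or 2 it was -0.33 or -0.78. The other HSF2 probe set gave -0.78 (adjusted p = 0.0541). In aPPs HSF2 read 441, 651 and 425 before and 477 and 544 after culture, which overlapped, with a difference of 0.04. The difference between the responses of pPPs and aPPs was -0.59 (95% interval -1.20 to 0.02) and was not called (adjusted p = 0.833).

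Among 9 genes of the HSP70 and HSP110 family, 1 was called, HSPA2 in aPPs. The platform symbol HSPA2 belongs in the RefSeq table to the gene with the synonym HSP70. It read 1069, 1044 and 1319 in aPPs and 1599 and 1547 in cultured aPPs. In pPPs it read 1100, 1153 and 995, and 1151 and 1210 after culture. Both cultured aPP arrays were above all the other arrays, whereas cultured and fresh pPPs overlapped. The log2 difference was 0.46 in aPPs (95% interval 0.20 to 0.72, adjusted p = 0.0483), a rise of 1.38-fold, and 0.13 in pPPs (95% interval -0.14 to 0.39, adjusted p = 0.645). The responses were not shown to differ (difference -0.34, 95% interval -0.71 to 0.03, adjusted p = 0.836), nor were cultured aPPs and cultured pPPs (0.41, adjusted p = 0.385). The HSPA2 call was close to the threshold. It was lost with an offset of 4 (adjusted p = 0.0515), no filter on detection (0.095), variances without the trend (0.155), only the arrays compared (0.074) or no normalization (1.00). It was also lost without aPP set 1 or 2 (0.130 and 0.135), pPP set 1 or 2 (0.0663 and 0.062) or cultured aPP set 1 or 2 (0.356 and 0.286), and held in the other 4 of the 10 fits that left out 1 array, with adjusted p = 0.0488 without cultured pPP set 2.

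HSPA8, the constitutive HSP70, read 2241, 2364 and 2924 in aPPs and 2460 and 2560 in cultured aPPs, and 2324, 2634 and 2480 in pPPs and 2653 and 2522 in cultured pPPs. The log2 differences were 0.01 in aPPs and 0.06 in pPPs, with 95% intervals of -0.21 to 0.23 and -0.16 to 0.28. These intervals lay within 1.5-fold in either direction. The mitochondrial HSPA9 read 1341, 1454 and 1333 in pPPs and 1872 and 1593 in cultured pPPs, without overlap. Its difference of 0.33 (95% interval 0.10 to 0.55) was not called (adjusted p = 0.0997), and in aPPs the difference was 0.01, between 1429, 1475 and 1487 on fresh and 1524 and 1416 on cultured arrays. On the other HSPA9 probe set pPPs overlapped, at 364, 325 and 268 before and 381 and 331 after culture, with a difference of 0.16 (adjusted p = 0.794).

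The HSP110 genes, whose products recharge HSP70 with ATP, gave no call. HSPA4 read 1128, 1055 and 1278 in aPPs and 884 and 829 in cultured aPPs, all below the fresh arrays, with a difference of -0.42 (95% interval -0.70 to -0.13, adjusted p = 0.107, or 0.0429 with array weights). Its other probe set gave 0.12 in the same comparison, the opposite sign. In pPPs HSPA4 overlapped, with a difference of 0.12. HSPA4L and HSPH1 overlapped in both responses. HSPH1 is strongly heat-inducible in mammals. Here it read 148, 231 and 142 in aPPs, 200, 235 and 190 in pPPs, 189 and 188 in cultured aPPs and 197 and 271 in cultured pPPs. Its differences were 0.15 in pPPs and 0.14 in aPPs, with wide 95% intervals of -0.33 to 0.62 and -0.33 to 0.61.

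The cytosolic HSP90 genes were not called. HSP90AA1, the stress-inducible form of mammals, read 2596, 2880 and 2317 in aPPs, 2621, 2802 and 2347 in pPPs, 2528 and 2596 in cultured aPPs and 2710 and 2560 in cultured pPPs. All 4 groups overlapped, and the differences were 0.03 in pPPs and -0.01 in aPPs (95% intervals -0.18 to 0.24 and -0.23 to 0.20). HSP90AB1, the constitutive form, had differences of -0.18 in pPPs and 0.08 in aPPs (95% intervals -0.43 to 0.07 and -0.17 to 0.33).

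On the probe sets tested for each gene, the mitochondrial chaperonin genes varied least among the 54 over the 10 arrays. HSPD1 and HSPE1, which neighbour each other in the RefSeq annotation, encode its chamber and lid. The highest of the 10 arrays was 1.15 times the lowest for HSPD1 and 1.08 times for HSPE1, with 16 added to each signal, against a median of 1.58 over the 54 genes and 1.73 over all tested probe sets. The other HSPD1 probe set ranged more, by 1.31 times, from 1824 to 2400. HSPD1 and HSPE1 were bright, whereas these medians cover genes of all intensities. FKBP4, a bright cochaperone from outside the 54 genes, ranged less than HSPD1, while the bright HSPA8 and HSP90AA1 ranged more. Whether the narrow range goes with the chaperonin or with high signal was not tested. HSPE1 read 2121, 2113 and 2158 in aPPs, 2173, 2205 and 2173 in pPPs, 2237 and 2098 in cultured aPPs and 2266 and 2193 in cultured pPPs. The culture differences of HSPD1 were 0.03 in pPPs and 0.01 in aPPs (95% intervals -0.13 to 0.20 and -0.16 to 0.17), and those of HSPE1 were 0.03 and 0.02. The other HSPD1 probe set gave 0.04 and -0.13.

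**Figure D2:**
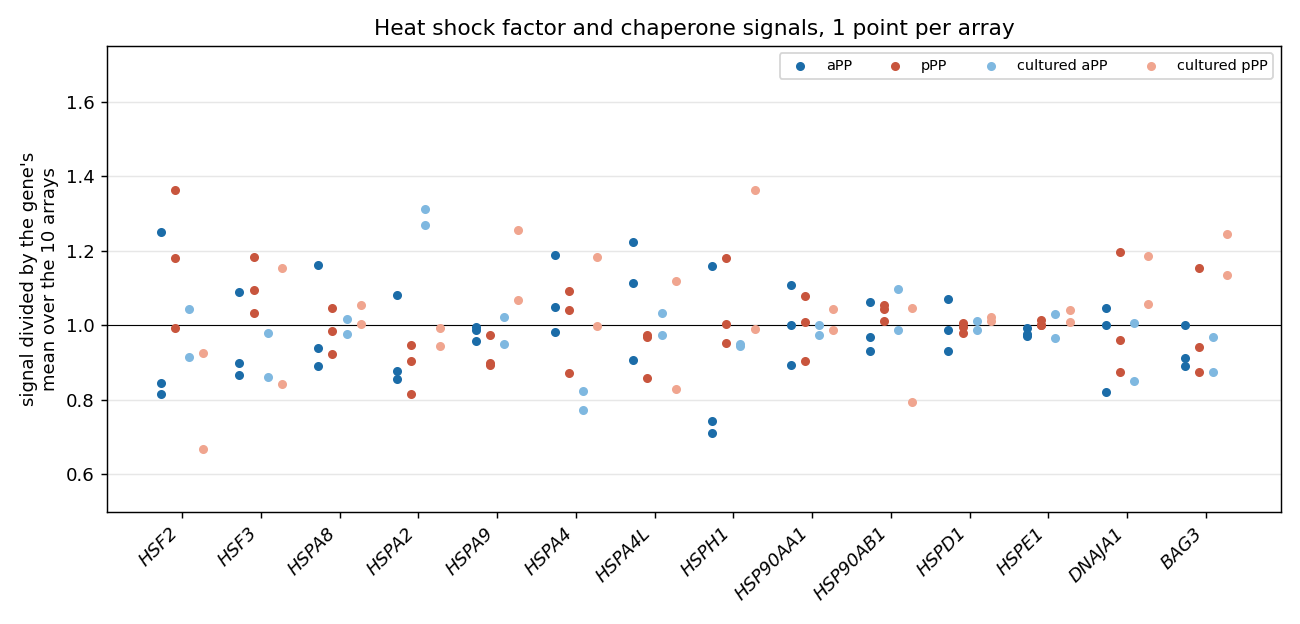
Signal of 14 heat shock factor and chaperone genes on each array, divided by that gene's mean over the 10 arrays (y axis, linear, no unit); 1 point per array, coloured by group. HSPE1 stays between 0.965 and 1.04 and HSPD1 between 0.932 and 1.07, whereas HSF2 spans 0.667 to 1.36 and cultured aPPs stand apart only for HSPA2 (high) and HSPA4 (low).

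Small HSPs held the largest rise. HSPB9, the gene that the RefSeq table lists with the synonym HSP25, read 128, 86.9 and 110 in aPPs and 257 and 250 in cultured aPPs. In pPPs it read 98.2, 133 and 123 before and 334 and 178 after culture. All 4 cultured arrays were above all 6 fresh ones, but the cultured pPP arrays were far apart. The log2 difference was 1.13 in aPPs (95% interval 0.61 to 1.65, adjusted p = 0.0177), a rise of 2.19-fold, and 0.97 in pPPs (95% interval 0.45 to 1.49, adjusted p = 0.0386), a rise of 1.96-fold. The responses differed by -0.16 (95% interval -0.90 to 0.58, adjusted p = 0.959), and aPPs and pPPs overlapped both before and after culture.

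The second HSPB9 probe set read 61.1, 50.9 and 70.5 in aPPs, 67.0, 84.0 and 58.3 in pPPs, 147 and 115 in cultured aPPs and 146 and 80.6 in cultured pPPs. Here the cultured aPPs again lay above all fresh arrays, with a difference of 0.94 (adjusted p = 0.0448), while pPPs overlapped, with 0.55 (adjusted p = 0.243). Without cultured pPP set 1 the pPP difference of HSPB9 was 0.54 and not called (adjusted p = 0.449), and without cultured pPP set 2 it was 1.39 (adjusted p = 0.00868). The pPP call was also lost without pPP set 1, 2 or 3 (adjusted p = 0.105, 0.07 and 0.0787) and without cultured aPP set 1 or 2 (0.0645 and 0.0642). No filter on detection (0.0682), array weights (0.0501), only the arrays compared (0.0648) and no normalization (1.00) ended it as well. The aPP call was lost with no normalization (1.00) and held in 7 of the 10 fits that left out 1 array, the exceptions being aPP set 2 (adjusted p = 0.0639) and cultured aPP sets 1 and 2 (0.181 and 0.162).

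**Figure D3:**
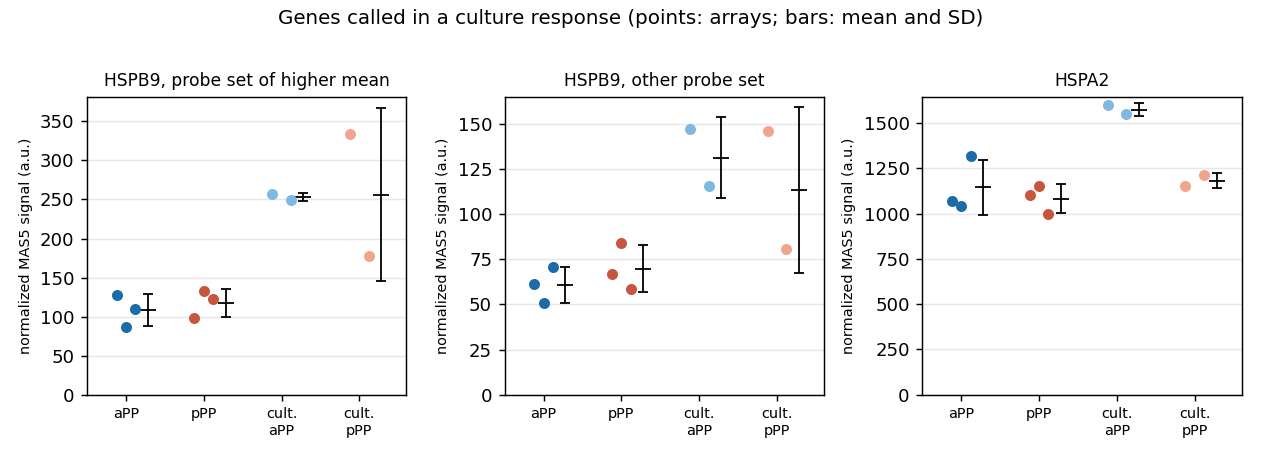
Normalized MAS5 signal (y axes, arbitrary units, from 0) of the 2 HSPB9 probe sets and of HSPA2 on each array, by group; black marks are group means with SD. On the HSPB9 probe set tested for the gene the 4 cultured arrays lie at 178 to 334 and the 6 fresh ones at 86.9 to 133, and HSPA2 is highest on the 2 cultured aPP arrays, at 1599 and 1547.

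The remaining small HSPs were dim and none was called. HSPB1, HSP27 in mammals and a common marker of stress, read 34.4, 26.7 and 28.6 in aPPs, 29.2, 50.5 and 39.1 in pPPs, 36.4 and 37.7 in cultured aPPs and 39.3 and 21.1 in cultured pPPs. Its differences were 0.21 in aPPs and -0.28 in pPPs. HSPB11, an intraflagellar transport protein despite its symbol, read 53.1, 32.8 and 39.3 in pPPs and 80.3 and 54.5 in cultured pPPs, just without overlap, with a difference of 0.53 (95% interval 0.06 to 1.00, adjusted p = 0.214). HSPB2, a muscle HSP, had present calls on 2 arrays, both of fresh aPPs, and its signals of 1.27 to 19.3 over the 10 arrays bear no reading. It passed the filter only through these calls and stayed among the 54 genes in every count. HSPB3, HSPB7, HSPB7L and HSPB8 were not tested.

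The 33 DNAJ genes tested, 4 of type A, 8 of type B and 21 of type C, included none that was called. DNAJB1 was not among the 65 genes that the rule gave, so that nothing is said here about it. DNAJA1, the main cytosolic DNAJA partner of HSP70, read 470, 585 and 428 in pPPs and 580 and 517 in cultured pPPs, and 402, 489 and 511 in aPPs and 416 and 493 in cultured aPPs. Both pairs of groups overlapped, with differences of 0.16 and -0.04. The DNAJA4, DNAJB6 and DNAJC2 differences, in pPPs and aPPs, were all between -0.07 and 0.19, and on the other probe sets of DNAJA4 and DNAJB6 between -0.28 and 0.47, with no call. DNAJB6 suppresses protein aggregation, and DNAJC2 acts at the ribosome.

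DNAJC5 encodes the cysteine string protein of secretory vesicles. It read 91.7, 93.2 and 119 in aPPs and 185 and 192 in cultured aPPs, without overlap, and 87.2, 87.8 and 156 in pPPs and 175 and 148 in cultured pPPs, with overlap. Its differences were 0.81 in aPPs (95% interval 0.31 to 1.31, adjusted p = 0.0735) and 0.53 in pPPs (adjusted p = 0.253). When the set number entered as a replicate block, the aPP difference was 0.99 and called (adjusted p = 0.0107). It was also called with array weights, with only the arrays compared and without pPP set 3 (adjusted p = 0.0146, 0.0487 and 0.0359). Other offsets, normalizations and detection filters and variances without the trend gave no call. Without aPP set 1, 2 or 3 it was 0.75, 0.76 or 0.92 and not called (adjusted p = 0.164, 0.159 and 0.0702). The other tested DNAJC5 probe set, with signals of 8.47 to 25.1, gave -0.02 in aPPs.

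DNAJC17 and DNAJC12 were lower in cultured than in fresh aPPs without overlap, and were not called. DNAJC17, a splicing-associated protein, read 25.2, 41.3 and 24.6 in aPPs and 13.04 and 12.9 in cultured aPPs, a difference of -0.66 (95% interval -1.08 to -0.24, adjusted p = 0.081), which was called with trimmed-mean scaling (adjusted p = 0.0288) and with array weights (0.0194). It was -0.98 with an offset of 4 and -0.29 with an offset of 64. The other DNAJC17 probe set overlapped, at 10.1, 29.4 and 31.5 in aPPs and 17.6 and 13.02 in cultured aPPs, with a difference of -0.29 (adjusted p = 0.582). DNAJC12, a cochaperone of the aromatic amino acid hydroxylases, read 68.3, 66.8 and 102 in aPPs and 41.1 and 50.03 in cultured aPPs, a difference of -0.61 (95% interval -1.06 to -0.16, adjusted p = 0.138). DNAJC28 in pPPs was at 28.9, 41.1 and 27.8 before and 72.3 and 42.6 after culture, a difference of 0.58 (adjusted p = 0.187). DNAJB14, a membrane protein of the endoplasmic reticulum named after its values were seen, was higher without overlap in both regions. So were HSPB9, HSPA12A and DNAJC8, on the probe set tested for each gene. Of all probe sets 17.2% were so in pPPs and 18.4% in aPPs, and the share in both regions was not counted. The other DNAJC8 probe set overlapped in both regions. It read 714, 526 and 498 in pPPs and 922 and 561 in cultured pPPs. In aPPs it read 635, 485 and 479, and 499 and 430 after culture. DNAJB14 read 467, 458 and 494 in pPPs and 609 and 652 in cultured pPPs, and 519, 489 and 450 in aPPs and 621 and 636 in cultured aPPs. These differences of 0.40 and 0.36 were not called (adjusted p = 0.126 and 0.188), and its other 3 probe sets gave 0.18 to 0.32 over both regions, with overlap except for 1 in pPPs.

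BAG3, a cochaperone that rises with HSP70 under proteotoxic stress in many cells, read 404, 496 and 376 in pPPs and 535 and 487 in cultured pPPs, and 430, 392 and 383 in aPPs and 416 and 376 in cultured aPPs. Both comparisons overlapped, with differences of 0.26 (95% interval -0.08 to 0.61) and -0.02 (95% interval -0.36 to 0.32). The other BAG3 probe set gave -0.00 and -0.15. HSPBAP1, a partner of HSPB1, read 21.6, 10.3 and 18.3 in pPPs and 49.9 and 26.04 in cultured pPPs, a difference of 0.70 (95% interval 0.15 to 1.25, adjusted p = 0.151), and in aPPs the difference was 0.38. With an offset of 64 the differences of these dim genes shrank, to 0.33 for HSPBAP1, 0.31 for HSPB11 and 0.32 for DNAJC28 in pPPs and to -0.38 for DNAJC12 in aPPs.

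**Figure D4:**
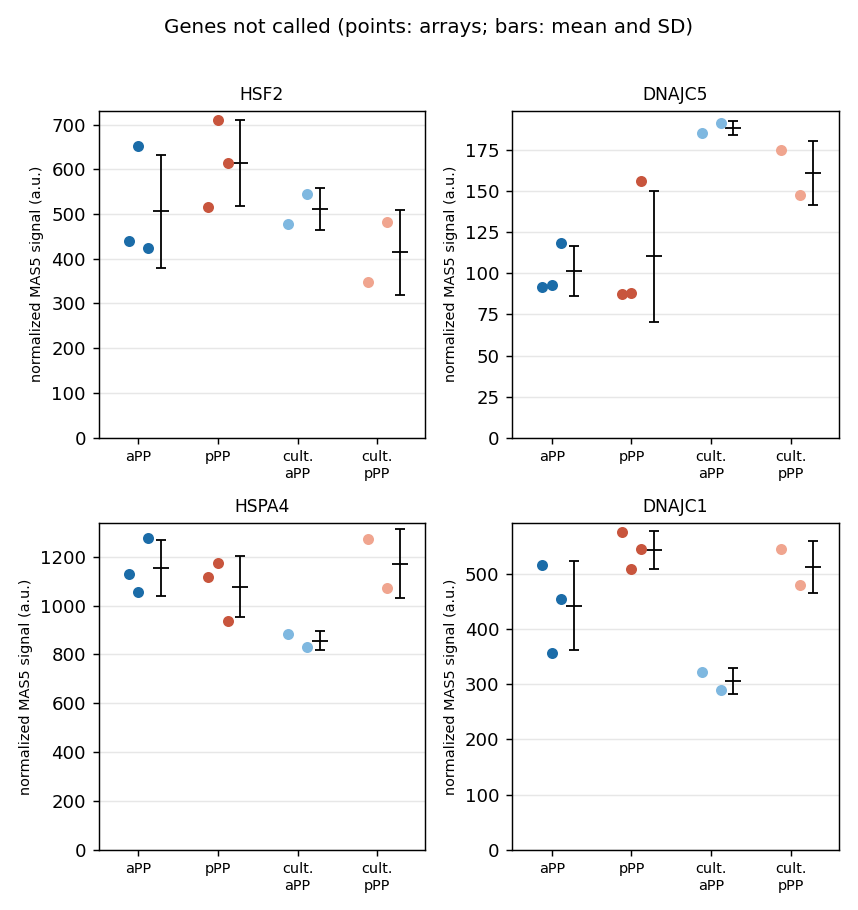
Normalized MAS5 signal (y axes, arbitrary units, from 0) of HSF2, DNAJC5, HSPA4 and DNAJC1, none of them called, on each array by group; black marks are group means with SD. HSF2 is lowest on a cultured pPP array (348), DNAJC5 is highest on the cultured aPP arrays (185 and 192), and HSPA4 and DNAJC1 are lowest there (829 and 289).

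An unadjusted p under 0.05 was reached by 11 of 54 genes in pPPs (20.4%) and 10 in aPPs (18.5%), against 18.1% and 16.7% of all tested probe sets. In pPPs the cultured arrays were all above the fresh ones for 14 genes and all below for 6 (25.9% and 11.1%), where all probe sets gave 17.2% and 16.4%. In aPPs the counts were 9 above and 11 below (16.7% and 20.4%), with 18.4% and 17.7% over all probe sets. HSPB2, tested only through present calls on fresh aPPs, was among the 10 with an unadjusted p under 0.05 and the 11 below. DNAJB2, tested only through 2 present calls on fresh pPPs, was also among the 11 below, with signals of 2.96 to 10.6. Differences beyond 1.5-fold were found for 2 genes in pPPs and 4 in aPPs, or 3.70% and 7.41%, and for 9.86% and 9.15% of all probe sets. The probe sets were not matched to the 54 genes for signal. Both responses share the model but not their arrays. The groups of 2 arrays limit the precision: the 95% interval lay within 1.5-fold in either direction for 29 genes in pPPs and 28 in aPPs, and within 2-fold for 49 and 50. Several genes have more than 1 tested probe set, 31 of 54, and for 15 of these all probe sets had the same sign in the pPP response, as for 15 in the aPP response.

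Before culture none of the 54 genes was called between aPPs and pPPs, while 1.89% of all probe sets were. None had an unadjusted p under 0.05, against 10.1%. The 54 genes stand on their brightest tested probe sets, whereas all probe sets include further and dimmer ones, so the shares are not matched for signal. On the probe set tested for each gene, the differences ran from -0.30 for DNAJC1 to 0.37 for DNAJC12. Their median was -0.01, and that of all probe sets was -0.02. The 95% interval lay within 2-fold for all 54 genes and within 1.5-fold for 44. The arrays did not overlap for 8 genes, 3 higher in aPPs (5.56%, beside 6.83% of all probe sets) and 5 lower (9.26%, beside 7.04%). The higher ones were DNAJC12, DNAJC17 and HSPB2, of which HSPB2 was tested only through present calls on fresh aPPs. DNAJC12 read 68.3, 66.8 and 102 in aPPs against 56.5, 59.4 and 53.5 in pPPs (adjusted p = 0.561). HSF2 overlapped on its main probe set. On the other it read 51.2, 71.6 and 52.5 in aPPs against 76.0, 107 and 102 in pPPs, without overlap and without a call.

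After culture the regions were likewise without a call, where 0.232% of all probe sets were called. Genes with both cultured aPP arrays below both cultured pPP arrays numbered 20 of 54 (37.0%, beside 22.7% of all probe sets), and 6 were above (11.1%, beside 20.6%). The lower ones were mostly DNAJ genes, as were most of the 54, and included BAG3, HSPA9, HSPA4 and HSPH1. HSPA2 and DNAJC5 were among the higher ones. The lower ones also held HSPB2, whose signals bear no reading, and DNAJB2, with signals of 2.96 to 10.6. An unadjusted p under 0.05 was reached by 4 genes (7.41%, beside 9.10% of all probe sets). The median difference was -0.08, beside -0.01 over all probe sets, and ran from -0.14 to -0.04 over the alternative settings. The members' median log2 signal varied between arrays of a group with an SD of 0.10, which is another measure than a median of differences. The median was -0.14 without cultured aPP set 1, -0.11 with no normalization and -0.11 with trimmed-mean scaling. Whether any of these medians exceeds the spread between arrays was not tested. The SD describes single arrays and is not the error of a difference between group means. The largest difference was that of DNAJC1, a membrane protein of the endoplasmic reticulum named after its values were seen, at 322 and 289 in cultured aPPs and 546 and 479 in cultured pPPs (-0.72, 95% interval -1.11 to -0.32, adjusted p = 0.197). Its other probe set gave -0.94 (adjusted p = 0.249). Without cultured pPP set 2, no member was called either, and the median was -0.09.

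**Figure D5:**
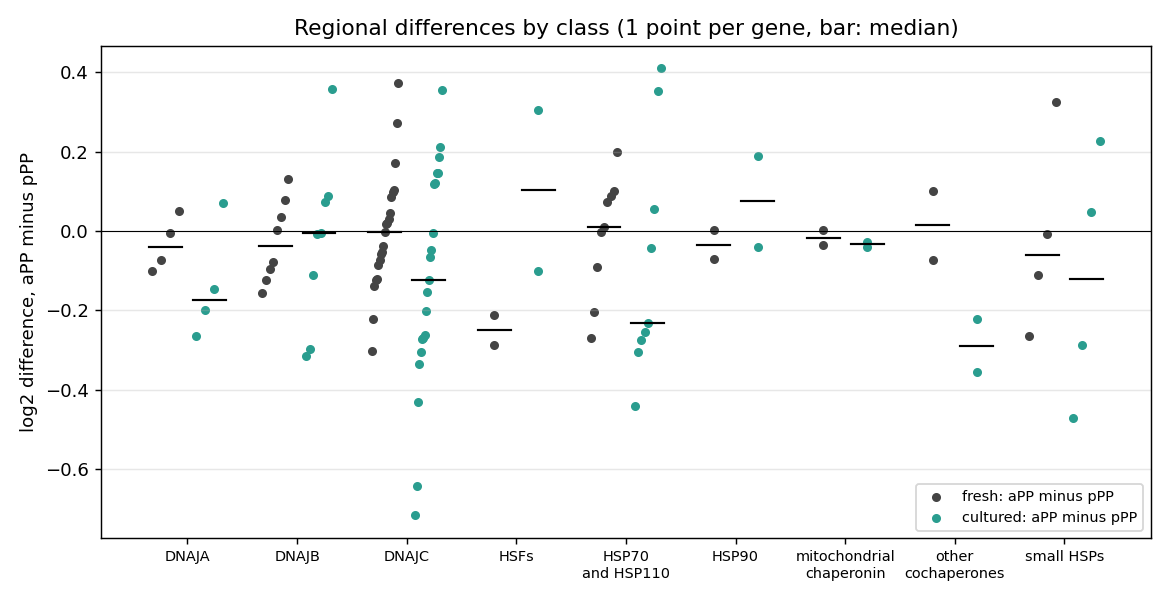
Log2 difference between aPPs and pPPs (y axis, aPP minus pPP) in fresh tissue (dark) and after culture (green), 1 point per gene by class, with black bars for class medians. Fresh differences stay between -0.30 and 0.37, and cultured ones between -0.72 and 0.41.

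The difference between the culture responses of pPPs and aPPs was called for none of the 54 genes and for 0.0139% of all probe sets. Its median was 0.07 over the 54 genes. An unadjusted p under 0.05 was reached by 4 genes, the dim HSPB2 among them (7.41%, beside 6.18% of all probe sets). Its 95% interval was within 2-fold for 46 genes and within 1.5-fold for 12, so that moderate differences in response between the regions were not detectable with these arrays.

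Other chaperone genes gave a similar count. A list of 44 was made of chaperonin subunits with prefoldin genes and PDCL3, HSP70 and HSP90 cochaperones, and other heat-inducible genes. It had 34 tested members, of which 1 was called in each response, beside 3.93% of all probe sets in pPPs and 3.71% in aPPs. A count this small does not set that list apart from all probe sets. The called gene was SERPINH1, the collagen chaperone HSP47, and the only 1 tested of the 5 other heat-inducible genes listed. It read 583, 626 and 740 in aPPs and 1257 and 1220 in cultured aPPs, and 613, 730 and 575 in pPPs and 1446 and 1200 in cultured pPPs. All cultured arrays were above all fresh ones, with log2 differences of 0.92 in aPPs (adjusted p = 0.0022) and 1.03 in pPPs (adjusted p = 0.00109). None of the 13 chaperonin, prefoldin and PDCL3 genes and none of the 20 cochaperones tested was called in either response. The median of the 34 was 0.13 in pPPs and -0.02 in aPPs.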

How the data were processed

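Per the labels, RNA was isolated with a Stratagene Absolutely RNA kit and prepared with NuGEN Ovation and biotin reagents for 10 Affymetrix chicken arrays. The authors then ran MAS5. Its version and the array methods are not given in the sources used. Each deposited value is a MAS5 signal, a linear intensity in arbitrary units that is not scaled between arrays. A deposited call marks each probe set as present, marginal or absent. Present calls per array covered 44.7 to 50.2 percent of probe sets.

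Control probe sets were left out. The signals of 38439 probe sets were quantile normalized over 10 arrays, 16 was added and log2 taken. Probe sets present on at least 2 of 8 arrays, 21591 in number, were tested with limma 3.58.1 in R 4.3.3 in 1 model of 4 group means with an intensity trend, with Benjamini-Hochberg adjustment over all of them. The labels do not say whether sets came from separate embryos, so that p-values measure the spread between these arrays. Symbols came from the platform annotation, and all 65 matched the RefSeq table. 1 probe set with several symbols was left out. In the table with the calls, 6 columns were not used: the signals and calls of 2 arrays under a shared name, and 2 signal columns without a set number. Members and lists were chosen with earlier results of these data known. Genes named are those called, the heat shock factors, BAG3 and STIP1, the major cytosolic and mitochondrial chaperones, the gene with the highest mean of each class and the 5 with the largest difference in each culture response.

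Set numbers pair aPPs with pPPs. Deviations from the group means correlated at 0.439, 0.182 and 0.226 between arrays of the same set. Fresh and cultured aPPs of a set gave -0.00805 and 0.0772, and fresh and cultured pPPs gave 0.0648 and -0.106. The cultured groups gave 0.1. This value had to be the same in both sets, because the deviations of 2 arrays from their mean are equal and opposite. The set number as a block was an alternative, as were other offsets, normalizations and detection filters, variances without the trend, array weights, only the arrays compared, all probe sets of a gene, and each array left out. The procedure was tested on simulated data. matplotlib 3.10.9 under Python 3.11.15 made the figures.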

Additional observations from a re-analysis of the deposited data

How the results depend on the processing

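Of the 54 genes, 1 was called in the culture response of pPPs and 2 in that of aPPs, and these counts depended on the settings. In pPPs the count was 0 with no normalization, no filter on detection, array weights or only the arrays compared. When the set number was a replicate block it was 2 (HSF2, lower, and HSPB9). In aPPs it was 1 with an offset of 4, no filter on detection or variances without the intensity trend, 0 with no normalization and 5 with array weights (HSPB9, HSPA2, HSPA4, DNAJC5 and DNAJC17). The block gave 3 in aPPs, and it changed no call between aPPs and pPPs. With 1 array left out, the counts were 0 to 1 in pPPs and 0 to 3 in aPPs. Other chaperone genes called in aPPs were 0 to 2 with 1 array left out, 2 with trimmed-mean scaling, 2 with the block and 3 with array weights, and with no normalization they were 0 in both regions. Without normalization the median of all probe sets was -0.20 in pPPs and -0.19 in aPPs, and 18 and 34 of them were called. That of the 54 genes was then -0.042 in pPPs and -0.064 in aPPs. With trimmed-mean scaling the 54 genes had medians of 0.11 in pPPs and 0.089 in aPPs. All probe sets then had medians of -0.069 and -0.072. No direction of a call reversed, and none of the 54 genes was called in the other 3 comparisons, under the alternatives run. The cause of these changes was not tested, except that leaving out arrays leaves fewer samples. Dim genes are limited by the offset and by signals near background.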
